A study of Mus musculus with 12 samples.

Results

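The genes of the p53 response and of the cell cycle described here, across aggregates of mouse embryonic stem cells, are Cdkn1a, Trp53inp1, Cdk6 and Myc. They are 4 of 1113 genes listed in 2 deposited expression tables. Cdkn1a, Trp53inp1 and Cdk6 are among the 546 genes of the co-culture table, Cdk6 and Myc are among the 633 genes of the cocktail table, and Cdk6 is the member in both. The members were chosen by earlier results on these same libraries, from genes that the authors had already selected for their differences, so the values of both comparisons are given as a description. No member is given a p-value from the fits made here, and the authors' own adjusted p-values are quoted as theirs.

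The aggregates came from the line 129w2 at passages 13 to 16, with 3000 cells seeded per well in serum-free medium on day 0. Every group, controls included, received Matrigel, 2 ng/ml of BMP4 at day 3, then 25 ng/ml of bFGF together with retinoic acid at 1 µM at day 4, and moved to new plates at day 5. Poly(A) RNA was sequenced from 12 libraries in 4 groups of 3: aggregates kept between days 5 and 7 in co-culture with mSMGs, their controls at day 7, aggregates cultured with a cocktail of factors, and their own controls at day 7. The labels neither spell out mSMGs, nor name the cocktail's factors, nor give the day on which cocktail aggregates were collected, so stage and cocktail cannot be told apart. Separate cultures are not stated for the replicates, and the errors therefore measure the spread between libraries, which may be technical.

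The tumour suppressor p53 is a transcription factor that is stabilised by DNA damage and other stresses and then switches on genes that halt the cell cycle or promote death. Cdkn1a encodes p21, which binds and inhibits complexes of cyclins with cyclin-dependent kinases (CDKs). Trp53inp1 encodes a nuclear protein that p53 induces and that takes part in p53-dependent death and in autophagy. Cdk6 encodes a kinase that works with D-type cyclins to phosphorylate the retinoblastoma protein and open the way from G1 into S phase. Myc encodes a transcription factor that pairs with Max, drives growth and ribosome production, and can repress Cdkn1a.

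The members lie on separate chromosomes and all on the plus strand (GRCm38, GENCODE M21). Cdkn1a (ENSMUSG00000023067) lies on chromosome 17 at 29090976 to 29100727, Trp53inp1 (ENSMUSG00000028211) on chromosome 4 at 11156431 to 11174379, Cdk6 (ENSMUSG00000040274) on chromosome 5 at 3341485 to 3531008 and Myc (ENSMUSG00000022346) on chromosome 15 at 61985391 to 61990374. Cdk6 spans 189524 bases and Myc 4984. Genes on the opposite strand overlap an exon block of Cdk6 (Gm17590) and of Cdkn1a (AC167363.2). The sources used here do not say that counting used strand, so reads of such partners cannot be told apart from the members' own.

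The stretches before the transcript starts of Cdkn1a and Cdk6 are shown because Cdkn1a is a textbook p53 target and both genes were higher in the same co-culture libraries. Each is 250 bases long, on the plus strand, from RefSeq (GRCm38.p6), and 2 of the 4 members matched that table. Capitals mark matches to the motifs searched. The windows are chr17:29090729-29090978, before the upstream start of Cdkn1a, chr17:29093519-29093768, before its downstream start, and chr5:3343643-3343892, before the start of Cdk6.
Cdkn1a, upstream start: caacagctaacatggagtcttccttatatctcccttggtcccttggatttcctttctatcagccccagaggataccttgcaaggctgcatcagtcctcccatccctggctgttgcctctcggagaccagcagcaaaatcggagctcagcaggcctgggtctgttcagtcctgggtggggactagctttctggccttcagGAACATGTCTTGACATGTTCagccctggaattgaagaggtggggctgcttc
Cdkn1a, downstream start: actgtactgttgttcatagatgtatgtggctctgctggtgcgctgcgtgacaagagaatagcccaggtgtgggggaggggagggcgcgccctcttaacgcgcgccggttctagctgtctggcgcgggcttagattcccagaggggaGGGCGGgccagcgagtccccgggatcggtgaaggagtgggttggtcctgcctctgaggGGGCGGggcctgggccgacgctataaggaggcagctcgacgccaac
Cdk6: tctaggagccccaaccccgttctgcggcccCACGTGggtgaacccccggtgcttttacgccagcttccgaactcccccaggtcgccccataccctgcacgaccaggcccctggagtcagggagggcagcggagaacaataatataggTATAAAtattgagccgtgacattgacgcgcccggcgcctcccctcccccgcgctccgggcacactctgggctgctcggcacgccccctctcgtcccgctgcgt

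The upstream window of Cdkn1a held a match to the p53 response element, which is a pair of adjacent half-sites of 10 bases. The match, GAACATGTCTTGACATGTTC at 29090928 to 29090947, had 0 mismatches in its first half-site and 1 in its second. It ended 32 bases before the upstream start and began 2841 bases before the downstream start. Such a match, with at most 1 mismatch per half-site outside the fixed core and no spacer, was found in 34 of 32851 windows of the same length (0.103%). Of the 9 p53 target genes in the co-culture table, 6 had windows in the table, and Cdkn1a was the 1 gene with a match. The downstream window of Cdkn1a held the GC box GGGCGG at 2 places (32.7% of windows hold it), and the Cdk6 window held the E-box CACGTG, the letters that Myc and Max bind (6.02%), and the TATA box TATAAA (12.4%). Both strands were searched, also for the AP-1 site TGANTCA (6.75% of windows), the interferon-related GAS TTCNNNGAA (7.02%), and the TEAD site CATTCC (12.6%), none of which matched in these 3 windows. These are letter matches, and no binding was measured.

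The first comparison asked how aggregates changed with co-culture. Cdkn1a, Trp53inp1 and Cdk6 were each higher in co-culture replicates 1 and 2 than in all 3 controls, and in replicate 3 the 3 genes parted. Levels are FPKM, which counts fragments relative to transcript length and library size, a unit inferred here because the header of that table gives none. The authors' list itself appears to follow pairs 1 and 2: of its 546 genes, 390 were at least 2-fold higher in both of these numbered pairs, 109 at least 2-fold lower in both, and 47 neither. High values of a member in pairs 1 and 2 therefore come with being listed.

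Cdkn1a was at 106, 222 and 52.1 FPKM in co-culture replicates 1, 2 and 3, against 45.7, 74.2 and 26.4 FPKM in control replicates 1, 2 and 3. The groups overlapped, because co-culture replicate 3 lay below control replicate 2. Means were 127 ± 86.6 FPKM with co-culture and 48.8 ± 24.0 FPKM in controls (SD, n = 3 each), 2.60-fold apart. Within each numbered pair the co-culture library was the higher one, by 2.33-fold, 2.99-fold and 1.97-fold in pairs 1, 2 and 3. On the log2(FPKM + 1) scale the difference of co-culture minus control was 1.24 (SE 0.66).

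Trp53inp1 was at 48.0, 73.0 and 29.4 FPKM in co-culture replicates 1, 2 and 3, against 18.9, 11.1 and 10.5 FPKM in control replicates 1, 2 and 3. All co-culture libraries lay above all controls, the 1 of 3 members for which the groups did not overlap; co-culture was likewise above control without overlap for 29.2% of all 425 genes tested. Means were 50.1 ± 21.9 FPKM with co-culture and 13.5 ± 4.66 FPKM in controls (SD, n = 3 each), 3.71-fold apart. The pairs differed by 2.54-fold, 6.57-fold and 2.79-fold, and the difference on the log2(FPKM + 1) scale was 1.77 (SE 0.61).

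Cdk6 was at 4.45, 9.18 and 1.10 FPKM in co-culture replicates 1, 2 and 3, against 1.80, 1.63 and 1.03 FPKM in control replicates 1, 2 and 3. Co-culture replicates 1 and 2 lay above all controls and replicate 3 lay among them. Means were 4.91 ± 4.06 FPKM with co-culture and 1.49 ± 0.407 FPKM in controls (SD, n = 3 each), and the difference on the log2(FPKM + 1) scale was 0.99 (SE 0.60). In pairs 1 and 2 the co-culture library was 2.47-fold and 5.61-fold higher, while in pair 3 the ratio was 1.07.

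**Figure D1:**
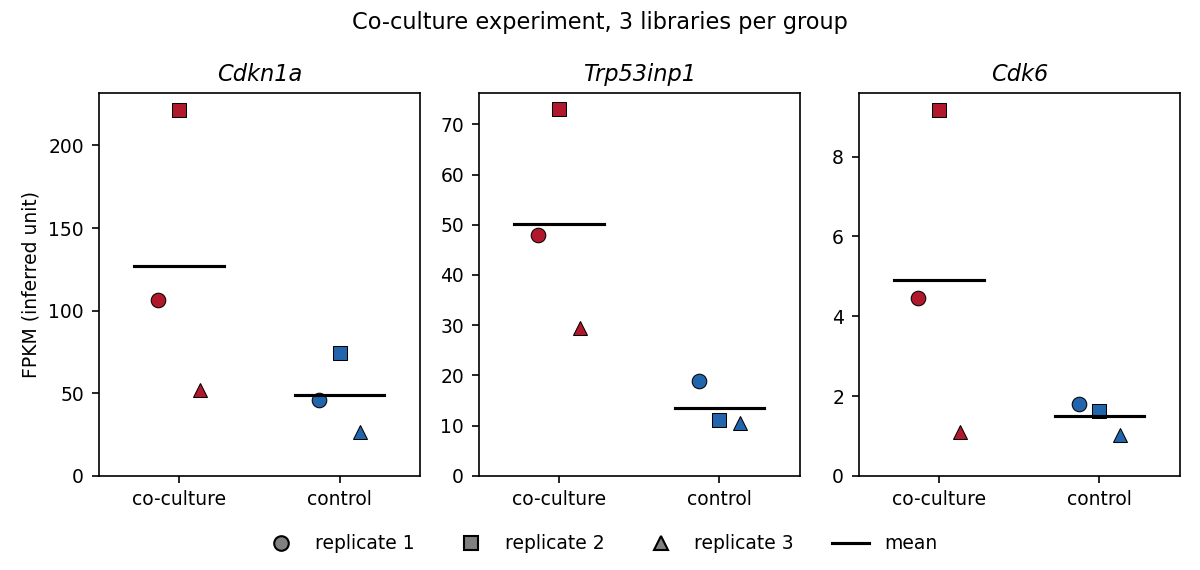
Levels of Cdkn1a, Trp53inp1 and Cdk6 in the co-culture experiment (vertical axis, FPKM as inferred, from 0), with 1 point per library, shaped by replicate number, and a bar at the mean of 3 libraries. Co-culture replicate 2 is the highest point of each gene, and only Trp53inp1 has all co-culture points above all control points.

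The order of the levels was the same in each of the 6 libraries, with Cdkn1a highest, Trp53inp1 next and Cdk6 lowest. Cdkn1a ranked 18 of 546 listed genes by mean level over the 6 libraries, Trp53inp1 ranked 51 and Cdk6 ranked 227. Across libraries the ranges of Cdkn1a (52.1 to 222 FPKM) and Trp53inp1 (29.4 to 73.0 FPKM) overlapped in co-culture, while Cdk6 (1.10 to 9.18 FPKM) stayed below both.

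Ratios within a library are unaffected by a single scaling factor per library, though not by quantile normalization. The ratio of Cdkn1a to Cdk6 in FPKM was 23.9, 24.2 and 47.3 in co-culture replicates 1, 2 and 3, against 25.4, 45.4 and 25.7 in control replicates 1, 2 and 3. The inhibitor gene and the kinase gene thus kept overlapping ratios in both groups, with means of 31.8 ± 13.4 with co-culture and 32.2 ± 11.4 in controls (SD, n = 3 each). Both genes are listed with rises in pairs 1 and 2, so overlapping ratios may come in part with their listing. The ratio of Trp53inp1 to Cdkn1a was 0.451, 0.329 and 0.564 with co-culture and 0.413, 0.150 and 0.399 in controls, which also overlapped.

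No gene of the co-culture table was called higher by limma without pairing (adjusted p under 0.05, 0 of 425 genes, 0%), and so 0 of the 3 members were; 86 genes had an unadjusted p under 0.05. When numbered pairs entered the fit as a block, 1 of the 3 members, Trp53inp1, was called, against 8.94% of all genes called higher. Without co-culture replicate 3 all 3 members were called, against 63.3%. Nothing is read from these counts, since the contrast chose the members. The median difference over all 425 genes was 0.83 on the log2(FPKM + 1) scale, so Cdk6 (0.99) lay a little above the middle of the table, at rank 168 of 425 from the highest rise. Cdkn1a stood at rank 101 and Trp53inp1 at rank 25. These ranks hold for 1 added before the log, which shrinks changes of low genes. With 0.1 added, the median was 1.23, Cdkn1a and Cdk6 were both at 1.26 and Trp53inp1 was at 1.84. On that scale Cdkn1a and Cdk6 both lay near the middle of the table.

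Sizes rested in part on single libraries and on the scaling. Without co-culture replicate 2 the log2 difference was 0.72 for Cdkn1a, 1.46 for Trp53inp1 and 0.46 for Cdk6, and without co-culture replicate 3 it was 1.60 for Cdk6. When each library was divided by its median ratio over the listed genes, which brought the median difference of the table to 0.05, Trp53inp1 was at 0.69, Cdkn1a at 0.13 and Cdk6 at 0.15. With quantile normalization, where the table's median was 0.24, they were at 0.96, 0.78 and 0.31.

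The authors' list appears to follow pairs 1 and 2, but their rule is not stated, and whether it used pair 3 is not known. The members were also chosen with the values of pair 3 known, so their ranks in pair 3 are a description. The pair holds 1 library per group and has no replicate check. There the log2(FPKM + 1) difference of co-culture minus control was 1.40 for Trp53inp1, 0.95 for Cdkn1a and 0.05 for Cdk6, against a median of 0.22 over the 425 genes tested. From the highest rise in that pair, Trp53inp1 ranked 12 of 425, Cdkn1a 32 and Cdk6 292. Because 1 was added before the log, these ranks depend on level as well as on fold change. Fas, at 0.446 against 0.0742 FPKM, was 6.01-fold higher there and ranked 127, while Cdkn1a was 1.97-fold higher.

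A list of 36 p53 target genes was drawn from general knowledge, but with earlier results of these data known. Of these, 9 were in the co-culture table and all 9 passed the filter on low values (a mean of at least 1 FPKM in either group). The other 27 were not analysed here. Fas passed through the co-culture libraries alone, so for it a difference comes with passing. All 9 had a fitted log2 difference above 0, with a median of 1.46 against 0.83 over all 425 genes tested, and 0 were called without the block. With the block 4 of the 9 were called (Epha2, Perp, Fas and Trp53inp1), against 9.18% of all 425 genes called in either direction, and with the block but without both libraries numbered 3, 0 of the 9 were called, as were 0 of all 450 genes then tested. All 9 were higher in co-culture in each of the 3 numbered pairs, against 59.3% of all genes tested, and 5 were at least 2-fold higher in all 3 pairs, against 16.7%. Those 5 were Trp53inp1, Perp, Plk2, Fas and Phlda3. They thus include a member and the gene that passed the filter through co-culture alone. The authors chose the listed genes on these libraries, so the list is not independent evidence of direction. Cdkn1a and Trp53inp1 are also members, chosen with these values known. The shares over all genes include genes listed for being lower: 74.4% of genes tested were higher in pair 1 at all. The counts of the 9 are therefore a description and no test of the list. All 9 differences stayed above 0 without co-culture replicate 2 (median 0.87), without replicate 3 (median 2.03) and with median-ratio scaling (median 0.45), although with that scaling the lowest, Cdkn1a, was at 0.13.

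Perp, a p53 target at cell junctions, was at 6.54, 35.7 and 3.96 FPKM in co-culture replicates 1, 2 and 3, against 1.80, 1.57 and 0.982 FPKM in controls, without overlap. Plk2, a polo-like kinase, was at 52.3, 130 and 28.3 FPKM with co-culture, against 25.1, 21.7 and 13.0 FPKM in controls, also without overlap. Phlda3, a p53-induced inhibitor of the kinase Akt, was at 22.8, 96.1 and 32.8 FPKM with co-culture, against 9.76, 37.3 and 8.10 FPKM in controls. Its groups overlapped, because co-culture replicates 1 and 3 lay below control replicate 2. In pair 3 the log2(FPKM + 1) difference of Phlda3 was 1.89, at rank 3 of the 425 genes tested.

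The list holds a pair of death receptor genes, of which Fas was the lower in level. Fas was at 2.22, 4.30 and 0.446 FPKM with co-culture, against 0.307, 0.226 and 0.0742 FPKM in controls. Tnfrsf10b, a receptor for the ligand TRAIL, was at 13.4, 31.7 and 4.34 FPKM with co-culture, against 6.28, 4.97 and 2.49 FPKM in controls. The groups overlapped for Tnfrsf10b and not for Fas. In both genes co-culture replicate 2 was the highest library.

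Epha2, an ephrin receptor, was at 16.9, 42.0 and 5.24 FPKM with co-culture, against 3.81, 5.63 and 2.65 FPKM in controls, and the groups overlapped at co-culture replicate 3. Polk, a polymerase that copies across damaged bases, was at 6.84, 12.6 and 5.17 FPKM with co-culture, against 3.17, 1.66 and 4.52 FPKM in controls. Its difference in pair 3 (1.14-fold) was the smallest of the 9 genes.

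**Figure D2:**
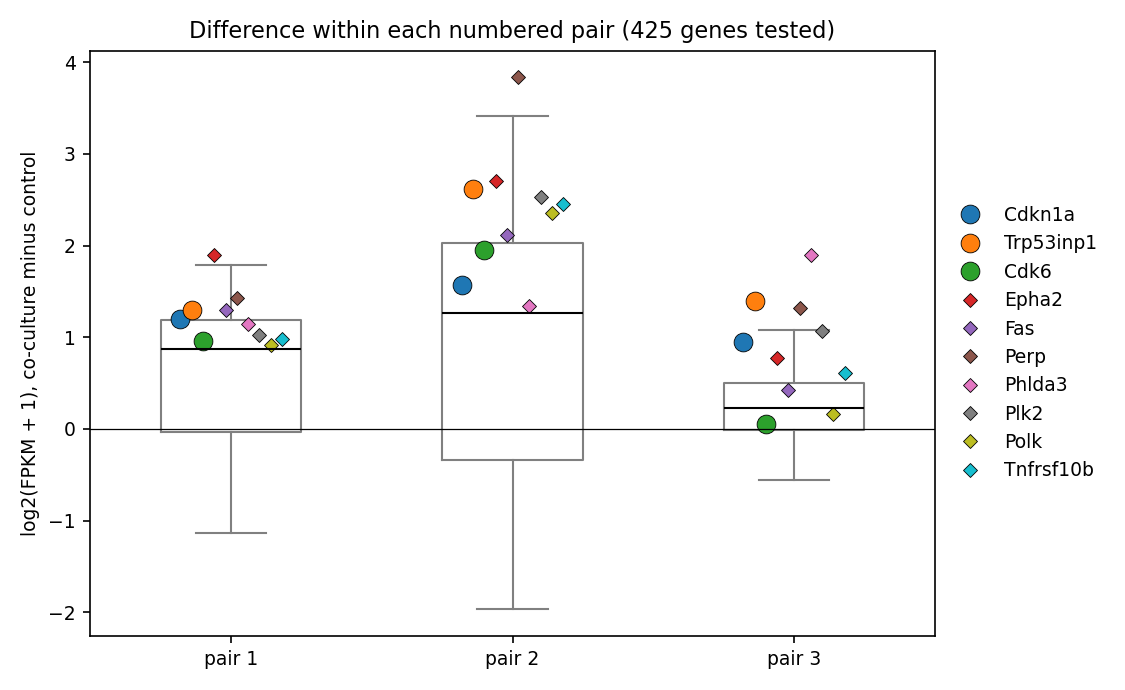
Difference of co-culture minus control in log2(FPKM + 1) (vertical axis) within each numbered pair (horizontal axis), with large circles for Cdkn1a, Trp53inp1 and Cdk6 and small diamonds for the other 7 listed p53 targets. Boxes show the quartiles and median of the 425 genes tested, and whiskers the 5th and 95th percentiles; in pair 3 Trp53inp1 (1.40) lies above the upper whisker and Cdk6 (0.05) lies below the median of 0.22.

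Cdkn1a was the 1 of 7 CDK inhibitor genes in the co-culture table, and Cdk6 the 1 of 25 genes of the list of cyclins, CDKs and the retinoblastoma switch. None of 13 genes for p53 and its regulators, 17 proliferation markers, 10 genes of the Myc network and 15 Myc targets was analysed here for co-culture. These lists do not cover every cell cycle gene of the table. Of genes outside them, picked after their values were seen, the mitotic ubiquitin-conjugating enzyme gene Ube2c fitted at -1.20 (SE 0.56) on the log2(FPKM + 1) scale, and Cdkn3, a phosphatase gene named as a CDK inhibitor, at -1.28 (SE 0.62). The securin gene Pttg1 fitted at -1.06 (SE 0.67) and the replication gene Gins1 at -1.03 (SE 0.67). None of these 4 was called by limma with or without the block, where 1 and 0 of all 425 genes were called lower. Their levels in single libraries are not given here. Of the 546 listed genes, 109 were at least 2-fold lower in pairs 1 and 2. These 4 are all on the lower side, while Cdk6 and the kinase gene Plk2 fitted above 0, at 0.99 and 1.54. No change in proliferation is read from these 4 genes.

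Markers of other cells were highest or lowest in the same libraries. Of 4 smooth muscle and myoepithelial markers, 3 were in the table (Tagln, Acta2 and Cnn1), and their summed level was 26.4, 267 and 1.40 FPKM in co-culture replicates 1, 2 and 3, against 1.85, 8.41 and 1.47 FPKM in controls. Acta2 and Cnn1 were listed at 0 in at least 1 library. The 3 of 5 endothelial markers in the table (Tek, Flt1 and Kdr) summed to 10.2, 42.1 and 1.65 FPKM with co-culture, against 3.89, 1.63 and 0.792 FPKM in controls. The neural progenitor genes Fabp7 and Hes5, 2 of 6, summed to 49.8, 25.8 and 269 FPKM with co-culture, against 155, 274 and 182 FPKM in controls. The epithelial keratin Krt19, 1 of 10 surface epithelium markers, was at 26.2, 154 and 11.2 FPKM, against 6.70, 6.37 and 6.22 FPKM. Chrm3, 1 of 5 salivary acinar markers, was at 2.13, 2.28 and 0.147 FPKM, against 1.29, 0.398 and 0.0700 FPKM. Col3a1, 1 of 6 mesenchymal markers, was below the filter on low values, at 1.10, 1.49 and 0.0298 FPKM, against 0.195, 0.302 and 0.0782 FPKM. The sums of the smooth muscle and endothelial markers were highest in co-culture replicate 2, like the 3 members, and their part in the members' values was not tested. Libraries were also correlated over the genes tested (Pearson r of log2 values across genes, which are not independent). Co-culture replicate 3 correlated at 0.931 to 0.960 with the controls, at 0.835 with co-culture replicate 1 and at 0.685 with co-culture replicate 2. Co-culture replicate 2 correlated at 0.609 to 0.655 with the controls. In bulk RNA a change in the number of cells of a type and a change in RNA per cell cannot be told apart.

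The genes whose pattern over the 6 libraries was nearest to each member were found by the root-mean-square difference between centred log2(FPKM + 1) profiles, among 422 named genes. Nearest to Cdkn1a were Pxdc1 (0.13), Vgf, a secreted neuropeptide precursor (0.16), and Lmna, which encodes lamins A and C (0.18), against a median distance of 0.70. Nearest to Trp53inp1 were Slc5a3, a myo-inositol transporter (0.16), Inpp5d, a phosphoinositide phosphatase (0.20), and Lpin1, a phosphatidate phosphatase (0.23), against a median of 0.67. Nearest to Cdk6 were Plcl1 (0.13), Chrnb1, an acetylcholine receptor subunit (0.13), and Irs2, an adaptor of the insulin receptor (0.19), against a median of 0.57. None of these 9 genes belongs to the p53 target list. That list has 9 genes in the table, members included, and so gives few of the 422 candidates. Nothing is read from their absence here.

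In the other comparison, aggregates with the cocktail were set against their own controls. Cdk6 was higher and Myc lower in all cocktail libraries than in all controls. The columns of that table name the group but no sample, so the libraries of a group are given in column order without replicate numbers, and FPKM is the unit per the file headers.

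Cdk6 was at 5.82, 5.25 and 5.41 FPKM in the cocktail libraries, against 1.29, 1.16 and 1.29 FPKM in their controls. The groups stood far apart, with means of 5.49 ± 0.296 FPKM with the cocktail and 1.25 ± 0.0770 FPKM in controls (SD, n = 3 each), 4.40-fold apart. On the log2(FPKM + 1) scale the difference of cocktail minus control was 1.53 (SE 0.10). The authors' deposited table gives Cdk6 a log2 fold change of 2.21 with an adjusted p-value (FDR) of 8.79e-91, at rank 161 among all 633 genes from the highest rise.

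Myc was at 4.20, 4.11 and 2.68 FPKM in the cocktail libraries, against 11.0, 10.3 and 10.7 FPKM in their controls. Again no library of one group reached the other, with means of 3.66 ± 0.851 FPKM with the cocktail and 10.7 ± 0.328 FPKM in controls (SD, n = 3 each). The control mean was 2.91-fold above the cocktail mean, and the difference on the log2(FPKM + 1) scale was -1.34 (SE 0.14). The authors' deposited table gives Myc a log2 fold change of -1.47 with an FDR of 2.89e-21, at rank 143 from the largest fall.

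**Figure D3:**
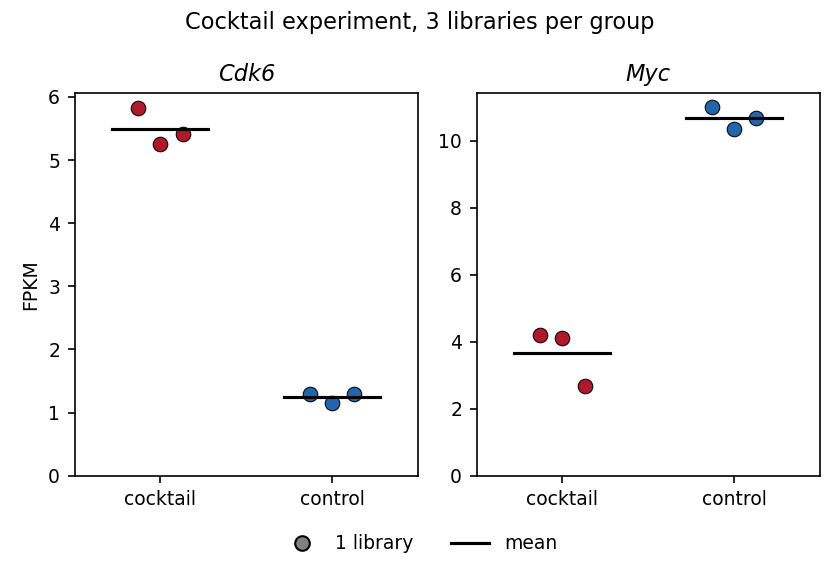
Levels of Cdk6 and Myc in the cocktail experiment (vertical axis, FPKM, from 0), with 1 point per library and a bar at the mean of 3 libraries. The cocktail libraries lie at 5.25 to 5.82 FPKM for Cdk6, above all controls, and at 2.68 to 4.20 FPKM for Myc, below all controls.

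The ratio of Cdk6 to Myc within a library was 1.39, 1.28 and 2.02 with the cocktail, against 0.118, 0.112 and 0.121 in controls. In controls the kinase gene was thus the lower of both in every library, and with the cocktail it was the higher one. The means, 1.56 ± 0.400 with the cocktail and 0.117 ± 0.00436 in controls (SD, n = 3 each), were 13.4-fold apart. The authors listed Cdk6 as up and Myc as down, so a ratio that differs between the groups comes with their listing. A single factor per library leaves this ratio as it is, while quantile normalization does not.

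**Figure D4:**
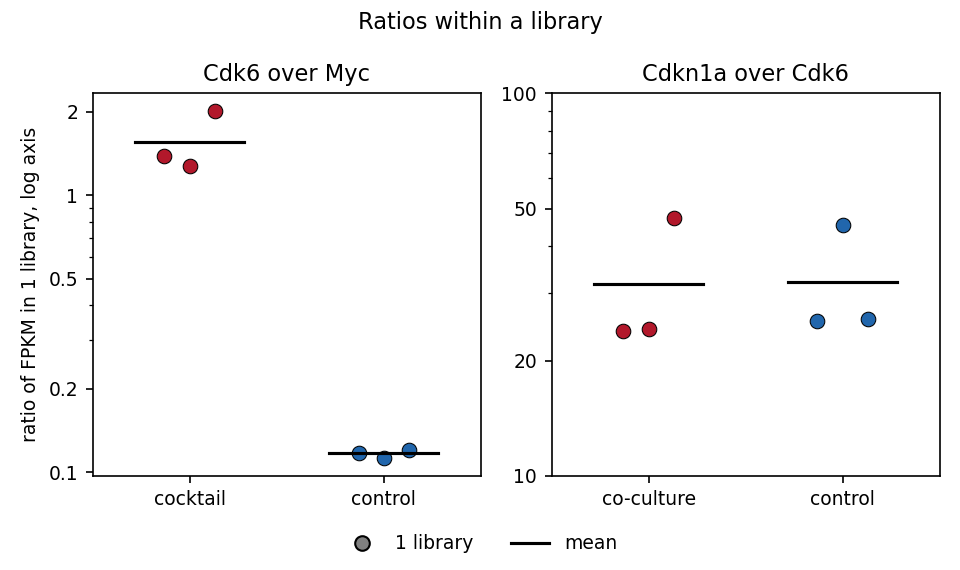
Ratio of FPKM between genes within 1 library (log vertical axis), Cdk6 over Myc in the cocktail experiment and Cdkn1a over Cdk6 in the co-culture experiment, with 1 point per library and a bar at the mean. Cdk6 over Myc is 1.28 to 2.02 with the cocktail and 0.112 to 0.121 in controls, while the groups overlap for Cdkn1a over Cdk6. The authors listed Cdk6 as up and Myc as down with the cocktail, so separate groups come with their listing.

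The cocktail table holds changed genes alone, so a call says little there. Of the 2 members, 1 was called higher and 1 lower by limma (adjusted p under 0.05), against 59.2% and 40.8% of the 530 genes tested, and the same shares held for groups that do not overlap. The median difference over those genes was 0.79, and Cdk6 ranked 119 of 530 from the highest rise and Myc 44 of 530 from the largest fall. With quantile normalization over the listed genes, an alternative added after seeing the data that moved the table's median to 0.19, Cdk6 was at 1.07 and Myc at -2.19.

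Of the other pathway genes, the cocktail table holds Fas, 1 of 36 p53 targets. Fas was at 1.96, 2.70 and 1.48 FPKM with the cocktail, against 0.284, 0.419 and 0.421 FPKM in controls, and fitted at 1.13 (SE 0.15) on the log2(FPKM + 1) scale. It passed the filter on low values through the cocktail libraries alone, so here too a difference comes with passing. Cdk6 was the 1 of 25 genes of the list of cyclins and CDKs and Myc the 1 of 10 of the Myc network. None of the 7 CDK inhibitors, 13 p53 regulators, 17 proliferation markers and 15 Myc targets was analysed here for the cocktail.

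Markers of mesenchyme and endothelium were lower in the same libraries as Myc. Of 6 mesenchymal markers, 3 were in the table (Col3a1, Pdgfra and Twist1), with summed levels of 7.34, 6.83 and 5.95 FPKM in cocktail libraries, against 24.2, 22.8 and 21.2 FPKM in controls. The endothelial receptor Kdr, 1 of 5 markers, was at 1.49, 1.75 and 1.42 FPKM, against 4.71, 5.76 and 4.44 FPKM, and the smooth muscle gene Acta2, 1 of 4, at 1.18, 1.04 and 1.11 FPKM, against 0.372, 0.251 and 0.250 FPKM. Chrm3, 1 of 5 salivary acinar markers, was below the filter on low values, at 0.437, 1.01 and 0.778 FPKM, against 0.269, 0.153 and 0.350 FPKM. The part of these markers in the levels of Cdk6 and Myc was not tested.

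By the same measure of pattern over 6 libraries, among 494 named genes, the nearest to Cdk6 were 9930111J21Rik2 (0.07, listed at 0 in all controls), Jam3, a junctional adhesion molecule (0.07), and Fat4, an atypical cadherin (0.08), against a median distance of 0.94. Nearest to Myc were Cx3cl1, a chemokine (0.10), Mylip, a ubiquitin ligase that targets the LDL receptor (0.10), and Igf2, a growth factor (0.11), against a median of 1.09. Igf2 was at 2.81, 2.45 and 1.71 FPKM with the cocktail and at 6.81, 5.75 and 6.38 FPKM in controls.

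Cdk6 is 1 of 66 genes listed in both tables, which make up 12.1% of the co-culture genes and 10.4% of the cocktail genes. The experiments share no library, and their tables were normalized separately, so levels are set side by side with no test between them. Controls stood at 1.80, 1.63 and 1.03 FPKM in the co-culture table and at 1.29, 1.16 and 1.29 FPKM in the cocktail table. Co-culture replicates 1 and 2 (4.45 and 9.18 FPKM) lay near and above the cocktail libraries (5.25 to 5.82 FPKM), and co-culture replicate 3 (1.10 FPKM) lay among the controls. The spread of Cdk6 between treated libraries was 82.7% of the mean with co-culture and 5.38% with the cocktail (coefficient of variation). Between controls it was also wider in the co-culture table, at 27.4% against 6.17%. The highest FDR in the authors' cocktail list was 0.0099, so a low spread may come in part with being listed there.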

How the data were processed

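Reads were aligned with HISAT2 to GRCm38, per the submitters' processing notes; the sources used here name neither quantifier nor annotation. The authors deposited FPKM per the file headers for 633 cocktail genes, with their log2 fold change and their adjusted p-value (FDR), and values with no stated unit, read here as FPKM, for 546 co-culture genes. The members and gene lists were chosen with earlier results of these data known. Each table was fitted alone with limma 3.58.1 (R 4.3.3, intensity trend) on log2(FPKM + 1), which understates changes of low genes, keeping genes whose mean reached 1 in at least 1 group, with Benjamini-Hochberg adjustment over all genes tested and a threshold of 0.05. The design named a count model for the cocktail table, which was not run. Its count columns name the same groups as its FPKM columns, and FPKM was used for the cocktail table by choice. Its 6 count columns and 6 columns named by numbers (12 in all) were not used, so depth is not given. Symbols came from GENCODE M21 (546 of 546 co-culture and 594 of 633 cocktail genes matched), and 1 line without values was left out. Named are all members, all listed genes of the pathway lists, and the 3 genes nearest in pattern to each member; Ube2c, Cdkn3, Pttg1 and Gins1 were added after their values were seen. Same-numbered co-culture and control libraries deviated together from their group means (r = 0.606, 0.143 and 0.256 across genes, each over 0.1), so the replicate number was also fitted as a block; the labels do not say what the numbers share and, with 3 libraries per group, these r values are not independent of one another. The fitting script was checked on simulated data. Alternatives were other pseudocounts, filters, scalings and libraries left out.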

Additional observations from a re-analysis of the deposited data

How the results depend on the processing

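Every member kept its direction under each alternative that gave it a value; with a minimum mean of 5 Cdk6 was not tested in co-culture. The number of co-culture genes called was 0 in the reported fit, 39 with the replicate block, from 0 to 330 when 1 library was left out (330 without co-culture replicate 3, 1 without control replicate 1), and 2 without both libraries numbered 3 (0 with the block there, added after seeing the data; 314 and 340 at an unadjusted p under 0.05). The block, which pairs same-numbered libraries, left the members' differences at 1.24, 1.77 and 0.99, and of the 3 it changed the call of Trp53inp1. With median-ratio scaling, which took the median of all genes from 0.83 to 0.05, Cdkn1a moved to 0.13, Trp53inp1 to 0.69 and Cdk6 to 0.15; with quantile normalization (median 0.24) Trp53inp1 moved to 0.96. Both scalings are computed over listed genes, most of them higher with co-culture, and by construction remove a shift they share.

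For the cocktail, 530 of 530 genes were called, and 252 with a minimum mean of 5, which tests fewer genes; without a filter 633 of 633 were. A pseudocount of 0.1 put Cdk6 at 2.05 and Myc at -1.54, quantile normalization at 1.07 and -2.19 (median of all genes 0.79 as deposited, 0.19 then), and median-ratio scaling at 1.00 and -1.98 (median 0.23). These 2 scalings, the minimum of 5 and a fit with no trend were added after seeing the data. With 1 library left out, Myc lay between -1.43 and -1.18. The planned count-based alternatives were not run, since count columns were not used. With 3 libraries per group the precision rests on few values, and the depth behind low levels, such as those of Cdk6 in controls, was not examined here.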
